A study of Mus musculus with 2 samples.

Results

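Neural crest specifiers are the transcription factors that give cells of the neural plate border their neural crest identity. This account covers 8 of them (Sox5, Sox9, Sox10, Foxd3, Tfap2a, Tfap2b, Snai2 and Ets1), chosen by name, of the 18131 genes measured. They were followed by single-cell RNA-Seq in the cardiac neural crest region of C57BL/6 mouse embryos at E9.5, dissected between the level of the mid otic placode and that of somite 4. Embryos of the genotype Prdm6+/+; Wnt1-Cre2; ZsGreen1 gave the WT library. The genotype of the KO library was Prdm6f/f; Wnt1-Cre2; ZsGreen1. Both groups therefore carried Wnt1-Cre2, a transgene that drives Cre recombinase in the Wnt1 lineage, and ZsGreen1, a fluorescent reporter that Cre turns on. Only the KO group carried the floxed Prdm6 alleles that Cre deletes, and cells outside the Wnt1 lineage kept Prdm6 in both. No sorting of reporter-positive cells is described, and cells were not assigned to embryos here. Each genotype had 1 library. Differences therefore have no replicate check, and no p-value is given. The authors describe batch effects between the conditions, for which the sums below were not corrected. Genotype and batch cannot be told apart here. All intervals are exact 95% intervals and cover counting error only.

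At the edge of the closing neural tube, AP-2 factors, Foxd3, Snai2 and SoxE factors act in sequence: cells are specified, lose their epithelial contacts, leave the tube and migrate. Sox9 is the SoxE factor of premigratory crest and later of cartilage and the otic vesicle, whereas Sox10 takes over in migrating crest and its glial and melanocyte descendants. Crest of the pharyngeal arches lowers Sox10 and Foxd3 as it becomes mesenchyme and takes on Dlx genes.

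The WT library held 11958 cells and the KO library 9765, with medians of 1597 and 1703 unique molecular identifiers (UMIs) per cell. Of the cell barcodes, 26 occurred in both libraries (0.217% of WT and 0.266% of KO barcodes). The targeted gene, Prdm6, which encodes a histone methyltransferase, had 104 UMIs in WT and 59 in KO, with a log2 ratio of KO over WT of -0.68 (-1.17 to -0.21). In migrating neural crest it had 1 UMI in WT and 0 in KO, so the deletion could not be checked there. Reads from the 3' end do not separate a deleted from an intact allele.

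Cells were placed in 16 classes by markers, none of which was a member. A cell belonged to a class if it held UMIs of at least 2 of its markers and of more of them than of any other class. This put 174 WT and 114 KO cells in the migrating neural crest class (1.46% and 1.17% of cells), with medians of 2284.5 and 2751.5 UMIs. Among genes that were no markers, and so were not used by the gate, Sox10, Tfap2b and Foxd3 stood 1 to 3 in the order of fold over all other cells. The arch neural crest mesenchyme class, gated on Dlx genes and their partners, held 41 WT and 58 KO cells and was led by Cthrc1, Msx2, Stk26 and Twist1. The dorsal neural tube and roof plate class, gated on Wnt1 and its neighbours in the tube, held 65 WT and 72 KO cells. Erythroid cells, 567 in WT and 215 in KO, served as the class that should lack these factors. The gates left 42.5% of WT and 42.1% of KO cells ungated. The macrophage and megakaryocyte class, with 2 and 4 cells, is not described. The cell types named below are these marker gates, and each gate is a set of cells that held the markers, not a sorted population.

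Sox10, Foxd3 and Tfap2b were at their highest in migrating neural crest in both libraries. Sox10 (chromosome 15, 79154908 to 79165240, minus strand, GRCm38), which maintains migrating crest and its glial fate, was at 751 UMIs per 1000000 UMIs of the class (CPM) in WT (670 to 839) and 763 CPM in KO (669 to 866). The next class, the otic and epibranchial placode, had 259 CPM (175 to 370) in WT and 287 CPM (201 to 397) in KO, with no overlap with the migrating class. Arch neural crest followed with 120 CPM in WT, whose interval overlapped that of the placode, and 88.1 CPM in KO, whose interval did not. In erythroid cells Sox10 was at 8.47 and 9.28 CPM, so the migrating level was 88.7-fold higher in WT (47.6 to 187) and 82.2-fold higher in KO (34.8 to 256).

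Foxd3 (chromosome 4, 99656299 to 99658622, plus strand), a forkhead repressor that keeps crest cells multipotent, was at 181 CPM in WT (142 to 227) and 147 CPM in KO (108 to 196) in migrating neural crest. Its second class was neurons, at 38.9 CPM (20.1 to 67.9) in WT and 26.2 CPM (12.6 to 48.2) in KO, below the migrating class without overlap. Dorsal neural tube cells held 2 Foxd3 UMIs in WT and 4 in KO, and arch neural crest held 2 and 1. Foxd3 was seen in 0 surface ectoderm and 0 sclerotome cells of either library. For the 107 WT sclerotome cells that 0 allows up to 3.39% of cells with a UMI by the interval.

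Tfap2b (chromosome 1, 19208914 to 19238576, plus strand), an AP-2 factor of crest and surface ectoderm, was at 406 CPM in WT (347 to 472) and 476 CPM in KO (402 to 558) in migrating neural crest. Surface ectoderm, with 22 and 26 cells, came second at 171 CPM (78.3 to 325) and 227 CPM (130 to 369). Arch neural crest was far lower, at 30.0 CPM (6.19 to 87.8) in WT and 54.2 CPM (23.4 to 107) in KO. Its relative Tfap2a (chromosome 13, 40715302 to 40738376, minus strand), which acts earlier at the neural plate border, had its highest level in surface ectoderm, at 152 CPM (65.7 to 300) and 171 CPM (88.1 to 298). Migrating neural crest was second for Tfap2a, at 65.2 CPM (43.0 to 94.8) and 60.7 CPM (36.5 to 94.7), and these intervals overlapped those of surface ectoderm.

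Sox9 (chromosome 11, 112782224 to 112787760, plus strand) was highest in the otic and epibranchial placode, at 1287 CPM in WT (1088 to 1511) and 1380 CPM in KO (1182 to 1601). Migrating neural crest was second in both libraries, at 850 CPM (763 to 943) in WT and 591 CPM (509 to 682) in KO, without overlap with the placode. Arch neural crest (651 and 454 CPM) and sclerotome (562 and 511 CPM), the source of vertebral cartilage, came next, with intervals that overlapped each other. In WT the arch interval (502 to 829) also overlapped that of migrating neural crest, and in KO those of sclerotome (416 to 621) and arch (352 to 577) did. Dorsal neural tube cells were at 166 CPM (103 to 254) in WT and 172 CPM (113 to 250) in KO. The level over all cells, 263 CPM (256 to 270) in WT and 226 CPM (220 to 233) in KO, lay above the dorsal interval in WT and inside it in KO. Erythroid cells were lowest, at 80.4 CPM (65.1 to 98.3) in WT and 46.4 CPM (30.0 to 68.5) in KO. A single erythroid WT cell held 12 of the 95 Sox9 UMIs there.

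Sox5 (chromosome 6, 143828425 to 144781977, minus strand), a SoxD factor without an activation domain of its own that modulates SoxE proteins, was low and spread out. Its level was 55.5 CPM (35.2 to 83.3) and 41.5 CPM (22.1 to 71.0) in migrating neural crest. Sclerotome was nominally highest in WT (62.5 CPM) and arch neural crest in KO (74.5 CPM), and the intervals of these classes overlapped. Dorsal neural tube cells held 6 Sox5 UMIs in 5 WT cells and 0 in KO, far under the minimum of 50 UMIs, and the upper end of the interval of the log2 ratio was -0.55.

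Snai2 (chromosome 16, 14705852 to 14709385, plus strand), a zinc finger repressor of epithelial genes, was not enriched in migrating neural crest. It was at 24.1 CPM (11.6 to 44.4) in WT and 19.2 CPM (7.03 to 41.7) in KO there, rank 12 of 15 classes in both libraries and below the level over all cells of 54.7 and 47.2 CPM. Arch neural crest had 80.1 CPM (34.6 to 158) and 74.5 CPM (37.2 to 133). Surface ectoderm (171 and 99.5 CPM) and pharyngeal and splanchnic mesoderm (116 and 97.3 CPM) were first and second, with overlapping intervals. The mesoderm class alone held 16.5% of all Snai2 UMIs in WT and 12.6% in KO, against 0.880% and 0.671% in migrating neural crest.

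Ets1 (chromosome 9, 32636221 to 32757820, plus strand), an ETS factor of cranial and cardiac crest and of blood vessels, was highest in endothelium, at 225 CPM (200.4 to 252) in WT and 194 CPM (171 to 220) in KO. Migrating neural crest was second, at 150 CPM (115 to 192) in WT and 169 CPM (127 to 221) in KO. The 2 intervals did not overlap in WT and did in KO. Arch neural crest was at 60.1 and 54.2 CPM, with intervals that reached from 22.0 to 131 in WT and from 23.4 to 107 in KO. Of the genes that overlap a member in the annotation, 1 that overlaps Sox5, 2 that overlap Tfap2a and 1 that overlaps Ets1 had a column, all on the opposite strand and with 14 or fewer UMIs in a library.

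**Figure D1:**
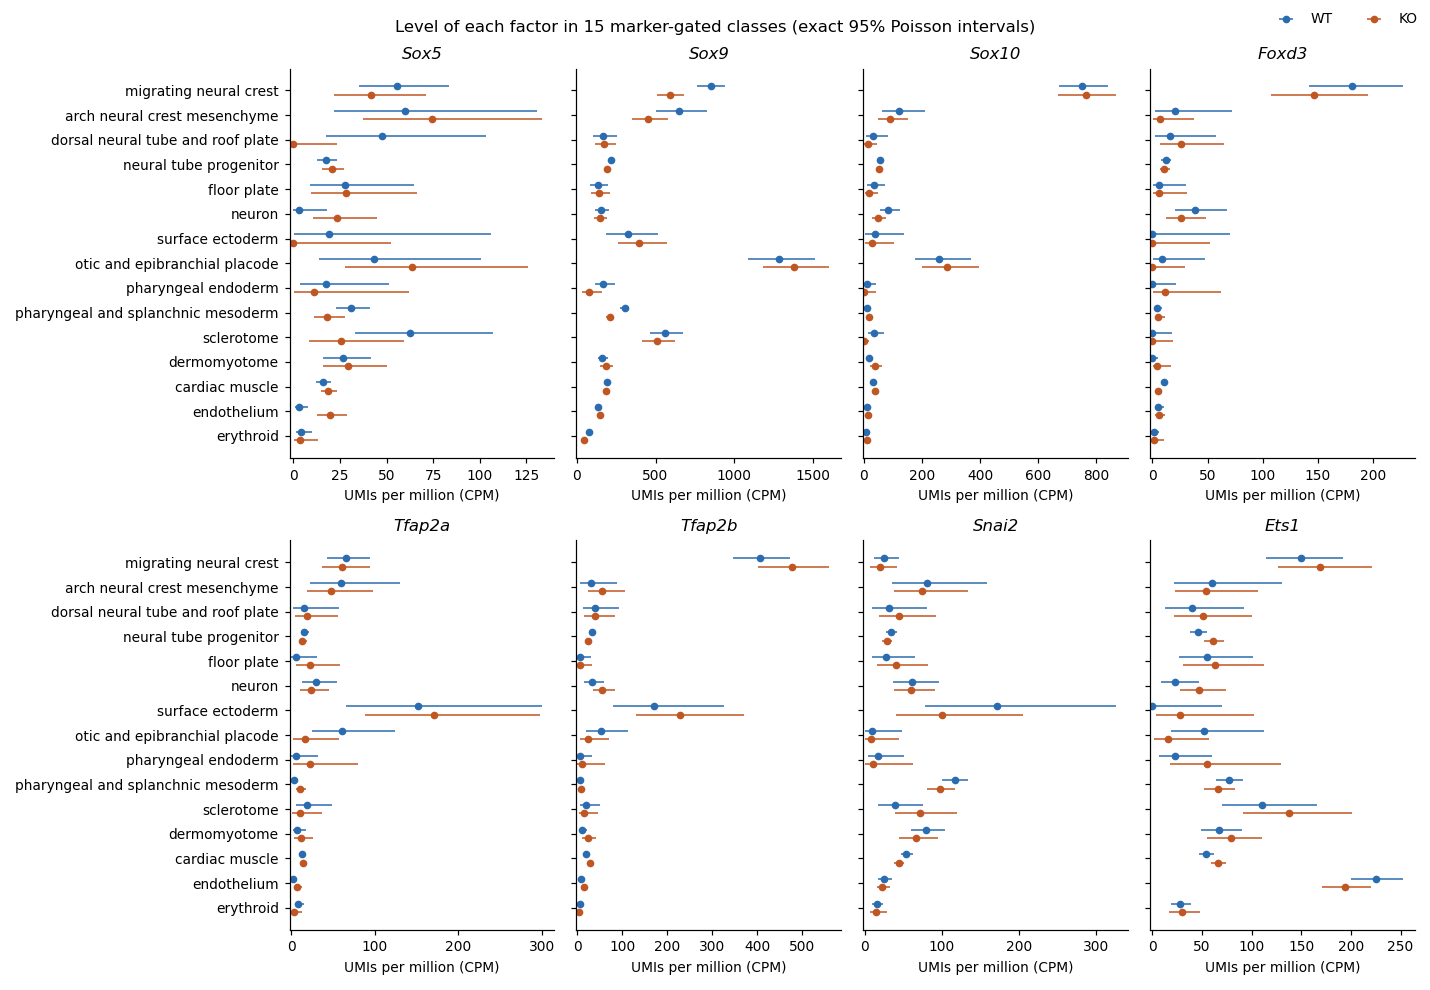
Level of each factor (horizontal axes, CPM, one scale per gene) in 15 marker-gated classes (vertical axis), WT in blue and KO in orange, with exact 95% Poisson intervals. Sox10, Foxd3 and Tfap2b stand out in migrating neural crest in both libraries, and Sox9 does in the placode. The highest points of Tfap2a and Snai2 are in surface ectoderm, with intervals that overlap the next class.

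The promoter sequences of Foxd3 and Tfap2b are shown because both genes were highest in migrating neural crest. They are the 250 bases before a start listed in the RefSeq promoter table (GRCm38.p6), which matched 4 of the 8 members (Sox5, Foxd3, Tfap2a and Tfap2b). Capitals mark every match, on either strand, to a SOX motif (ACAANG), an E-box (CANNTG) or an AP-2 motif (GCCNNNGGC). The E-box is a loose motif, of which different basic helix-loop-helix and zinc finger proteins bind different forms. Which protein binds a marked site was not tested. The Foxd3 window is chr4:99656049-99656298 and the Tfap2b window is chr1:19211804-19212053, both on the plus strand. The Foxd3 window ends just before the gene position given above, whereas the start listed for Tfap2b, and its window, lie inside the span of the gene given above.
Foxd3: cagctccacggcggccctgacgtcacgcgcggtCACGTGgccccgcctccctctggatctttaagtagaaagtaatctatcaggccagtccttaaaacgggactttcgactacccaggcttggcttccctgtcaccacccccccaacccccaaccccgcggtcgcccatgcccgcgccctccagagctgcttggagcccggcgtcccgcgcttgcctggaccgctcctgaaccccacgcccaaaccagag
Tfap2b: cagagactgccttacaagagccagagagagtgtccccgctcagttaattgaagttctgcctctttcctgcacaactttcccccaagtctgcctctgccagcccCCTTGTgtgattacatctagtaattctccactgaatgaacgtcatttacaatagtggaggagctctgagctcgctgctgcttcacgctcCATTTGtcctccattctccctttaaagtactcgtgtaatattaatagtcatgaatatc
The Foxd3 window held 1 match, the E-box CACGTG that begins 217 bases before the start. The Tfap2b window held 2 matches, the SOX motif CCTTGT from 147 bases and the E-box CATTTG from 58 bases before the start, which do not overlap. Neither window held the AP-2 motif. Of 32851 windows of the same length, 36.3% held the SOX motif, 66.2% the E-box and 13.7% the AP-2 motif. The Foxd3 window was 65.6% GC and the Tfap2b window 46.4%.

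To compare libraries of different depth cell by cell, cells were reduced to 1000 randomly drawn UMIs apiece. Shallower cells were dropped, 1361 in WT and 125 in KO, among them 4 WT migrating cells. The thinned libraries were therefore also filtered to an unlike extent. After thinning, Sox10 was seen in 45.9% of migrating neural crest cells in WT (38.2% to 53.7%) and 43.9% in KO (34.6% to 53.5%), against 66.7% and 64.9% before. Sox9 was seen in 40.0% (32.6% to 47.8%) and 29.8% (21.6% to 39.1%), against 56.3% and 49.1% before. The WT and KO intervals overlapped for both. Tfap2b was seen in 26.5% and 29.8%, Foxd3 in 11.8% and 11.4%, Ets1 in 12.9% and 12.3%, Sox5 in 5.88% and 3.51%, Tfap2a in 4.71% and 6.14%, and Snai2 in 2.35% and 1.75% of cells. Before thinning the same order of genes gave 36.8% and 45.6%, 27.6% and 24.6%, 27.6% and 29.8%, 12.1% and 9.65%, 13.2% and 15.8%, and 5.17% and 5.26%.

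Erythroid cells, with medians of 2004 UMIs in WT and 2448 in KO, give the background of these shares. After thinning Sox9 was seen in 5.65% of them in WT (3.87% to 7.92%) and 3.76% in KO (1.64% to 7.27%). The other members lay between 0.364% and 1.82% in WT and between 0 and 3.29% in KO. The Snai2 share of migrating cells overlapped its erythroid share of 1.64% (0.752% to 3.09%) in WT and 1.41% (0.291% to 4.06%) in KO, and in KO the shares of Sox5 and Tfap2a also overlapped theirs. By UMIs, the Snai2 level of migrating neural crest was 1.58-fold that of erythroid cells in WT (0.653 to 3.62) and 1.29-fold in KO (0.369 to 4.24), intervals that include 1. For Sox5 the folds were 13.1 (4.88 to 44.2) and 11.2 (2.53 to 102), and for Tfap2a 7.70 (3.61 to 17.8) and 16.3 (3.94 to 145).

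**Figure D2:**
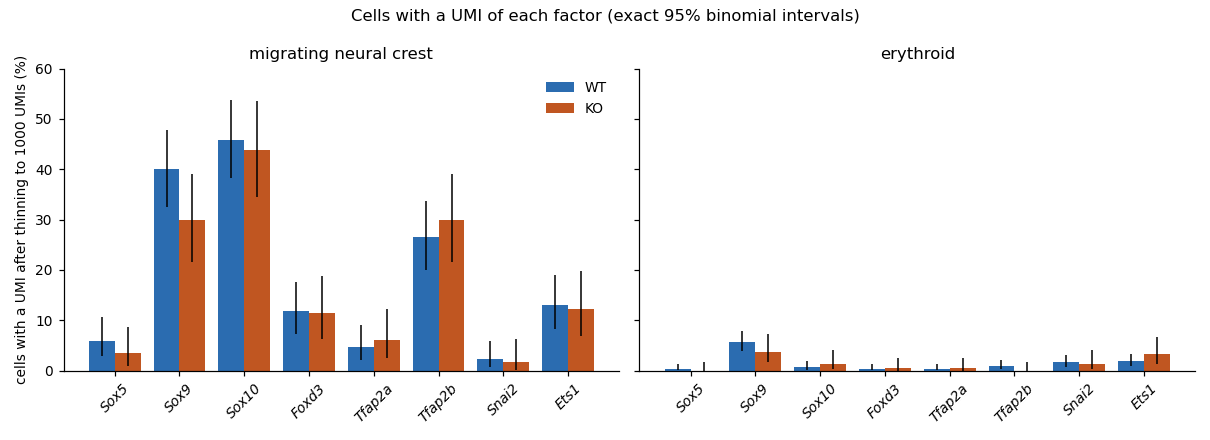
Share of cells with at least 1 UMI of each factor (vertical axis, percent) after each cell was thinned to 1000 UMIs, in migrating neural crest and in erythroid cells, WT in blue and KO in orange, with exact 95% binomial intervals. Sox10 reaches 45.9% and 43.9% of migrating cells, and every member stays under 6% of erythroid cells.

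Sox9, Sox10 and Tfap2b also reached many UMIs in single cells. Before thinning, 25 of 174 WT cells (14.4%, interval 9.52% to 20.5%) and 13 of 114 KO cells (11.4%, interval 6.21% to 18.7%) of the migrating class held 5 or more Sox9 UMIs. For Sox10 these were 14 WT cells (8.05%) and 14 KO cells (12.3%), and for Tfap2b 9 (5.17%) and 11 (9.65%). The highest count in a cell was 19 for Sox9 in WT and 15 in KO, whereas Ets1 reached 3 and 4. In the placode class, 31.3% of WT and 38.8% of KO cells held 5 or more Sox9 UMIs.

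Thinned migrating neural crest cells held UMIs of 1.50 of the 8 factors on average in WT and 1.39 in KO. Of them 21.2% held 3 or more factors in WT (15.3% to 28.1%) and 18.4% in KO (11.8% to 26.8%). No other class reached 5% in either library. None of the factors was seen in 19.4% of these cells in WT and 22.8% in KO, against 88.9% and 89.7% of erythroid cells. In arch neural crest 2.50% of WT cells and 0% of KO cells held 3 or more.

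Within migrating neural crest, Tfap2b and Foxd3 were seen mostly in cells that also held Sox10. Of the 45 WT cells with a Tfap2b UMI, 68.9% held Sox10 (53.4% to 81.8%), against 37.6% (29.1% to 46.7%) of the 125 cells without. In KO the shares were 64.7% (46.5% to 80.3%) of 34 cells and 35.0% (24.7% to 46.5%) of 80 cells. Foxd3 gave 75.0% of 20 cells (50.9% to 91.3%) against 42.0% (34.0% to 50.3%) in WT. In KO it gave 69.2% of 13 cells (38.6% to 90.9%) against 40.6% (30.9% to 50.8%), with overlapping intervals. Sox10 was seen in similar shares of cells with and without Sox9, and the difference from Tfap2b and Foxd3 was not tested. Of the 68 WT cells with a Sox9 UMI, 47.1% held Sox10 (34.8% to 59.6%), against 45.1% (35.2% to 55.3%) of cells without, and in KO the counts were 14 of 34 cells with and 36 of 80 cells without Sox9. Tfap2b was seen in 17.6% of WT cells with Sox9 (9.46% to 28.8%) and in 32.4% (23.4% to 42.3%) of those without, with overlapping intervals. Cells of 1 library are not replicates, and a factor missed in a thinned cell may have been present.

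To ask whether the specifiers differed between the libraries of the genotypes, levels were compared between KO and WT, first over all cells. None of the 8 members differed 1.5-fold or more. Of the 12909 genes with at least 50 UMIs, 1.03% were that much higher in KO and 3.87% that much lower. The interval of the log2 ratio excluded 0 for 4 members. Tfap2b, at 32.6 CPM in WT and 37.4 CPM in KO, and Ets1, at 75.0 and 81.3 CPM, were higher in KO (0.20, interval 0.04 to 0.35, and 0.12, interval 0.01 to 0.22). Sox9, at 263 and 226 CPM, and Snai2, at 54.7 and 47.2 CPM, were lower (-0.21, interval -0.27 to -0.16, and -0.21, interval -0.34 to -0.08). Of all these genes 14.4% were higher and 25.8% lower by this rule, against which 2 of 8 members were higher and 2 of 8 lower. With cells thinned to 1000 UMIs, the intervals of Tfap2b (0.07, interval -0.16 to 0.31) and Ets1 (0.10, interval -0.05 to 0.24) included 0. That comparison covers only the 10597 WT and 9640 KO cells deep enough to keep. Sox5 had 431 and 400 UMIs, Sox10 1274 and 1107, Foxd3 277 and 230 and Tfap2a 301 and 305, with ratios of 0.03 (-0.17 to 0.23), -0.07 (-0.19 to 0.05), -0.13 (-0.39 to 0.12) and 0.15 (-0.08 to 0.39). In these sums, fewer cells that express a gene and less RNA per cell cannot be told apart.

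In migrating neural crest, Sox9 was lower in KO and the interval of each other member included 0. Sox9 had 352 UMIs (850 CPM) in WT and 185 UMIs (591 CPM) in KO, a log2 ratio of -0.53 (-0.79 to -0.26). Where cells with 2 or more markers of another class were left out (135 WT and 89 KO cells remained), the Sox9 ratio was -0.30 with an interval that included 0 (-0.62 to 0.01). With at least 3 markers (71 WT and 48 KO cells) it was -1.22 (-1.65 to -0.81). When cells were instead assigned by likelihood to the class whose profile they fitted best, members left out, the intervals of Sox10 (-0.22, interval -0.37 to -0.06) and Foxd3 (-0.57, interval -0.93 to -0.21) also excluded 0. With the marker gate, Sox10 had 311 and 239 UMIs, with a ratio of 0.02 (-0.23 to 0.27). Tfap2b had 168 and 149 UMIs (0.23, interval -0.10 to 0.56), Foxd3 75 and 46 UMIs (-0.30, interval -0.86 to 0.25) and Ets1 62 and 53 UMIs (0.18, interval -0.38 to 0.73). Tfap2a (27 and 19 UMIs), Sox5 (23 and 13) and Snai2 (10 and 6) were too few for a 1.5-fold difference to be detectable. None of the 5 members with at least 50 UMIs differed 1.5-fold. Among the 3058 such genes 4.68% were 1.5-fold higher in KO and 5.82% lower, and the interval lay above 0 for 7.33% and below 0 for 5.82%. The class took 1.46% of WT cells (1.25% to 1.69%) and 1.17% of KO cells (0.964% to 1.40%).

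With arch neural crest and cells tied between both gates added (217 WT and 174 KO cells), Sox9 was at 826 and 559 CPM, a ratio of -0.56 (-0.79 to -0.34). Foxd3 was at 148 and 101 CPM, a ratio of -0.55 (-1.11 to -0.01), and Sox10 at 633 and 550 CPM (-0.20, interval -0.45 to 0.04). Of 7 members with at least 50 UMIs there, 2 had an interval below 0 and 0 above. Of all 3989 such genes, 243 had an interval below 0 and 279 above. Arch cells, low in Foxd3 and Sox10, made up more of this set in KO: their gate held 0.594% of KO cells and 0.343% of WT cells. The part of this mix of cells in the ratios was not tested.

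**Figure D3:**
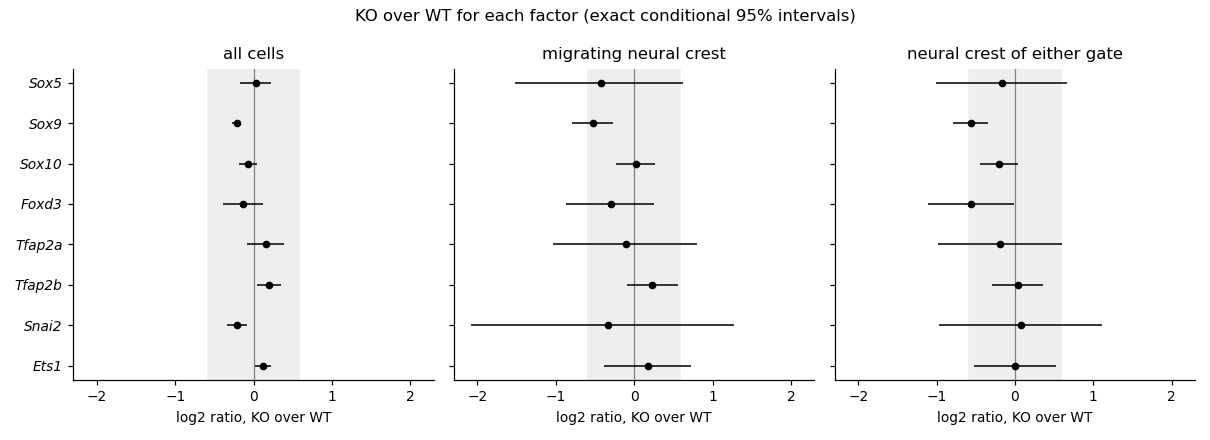
Log2 ratio of KO over WT (horizontal axes) for each factor over all cells, in migrating neural crest and in neural crest of either gate, with exact conditional 95% intervals. The grey band is a difference under 1.5-fold. Every point lies in the band, and in migrating neural crest Sox9 alone has an interval that excludes 0.

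The lower Sox9 level in KO was also seen outside the neural crest, and not in all classes. Pharyngeal and splanchnic mesoderm, with 798 WT and 490 KO cells, had 303 and 211 CPM (-0.52, interval -0.75 to -0.30), and arch neural crest had 65 and 67 UMIs (-0.52, interval -1.03 to -0.004). Few mesoderm cells held many of these UMIs: 25 WT cells with 5 or more held 176 of 488, and 5 KO cells held 50 of 245. Sox9 was seen in 28.3% of WT and 28.4% of KO mesoderm cells before thinning, and in 19.2% and 14.1% after, with overlapping intervals. Neural tube progenitors had 218 and 192 CPM (-0.19, interval -0.37 to -0.01), and ungated cells 313 and 252 CPM (-0.31, interval -0.40 to -0.22). Erythroid cells, which should lack Sox9, had a ratio of -0.79 (-1.49 to -0.15), on 95 and 25 UMIs. The intervals included 0 in the placode (0.10, interval -0.22 to 0.43), sclerotome (-0.14, interval -0.54 to 0.26), cardiac muscle (-0.03, interval -0.17 to 0.12) and endothelium (0.15, interval -0.15 to 0.45). In the cardiac muscle class Sox9 was at 191 CPM in WT and 188 CPM in KO. With 5 or more cardiac markers required (611 WT and 383 KO cells), Sox9 was at 60.9 and 55.5 CPM. The ratio was then -0.13, with a wider interval (-0.62 to 0.35) that also included 0. The cardiac muscle value is therefore that of a mixed gate. The share of free RNA in these sums was not tested. In migrating neural crest Sox9 was 10.6-fold above erythroid cells in WT (8.40 to 13.4) and 12.7-fold in KO (8.36 to 20.2).

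**Figure D4:**
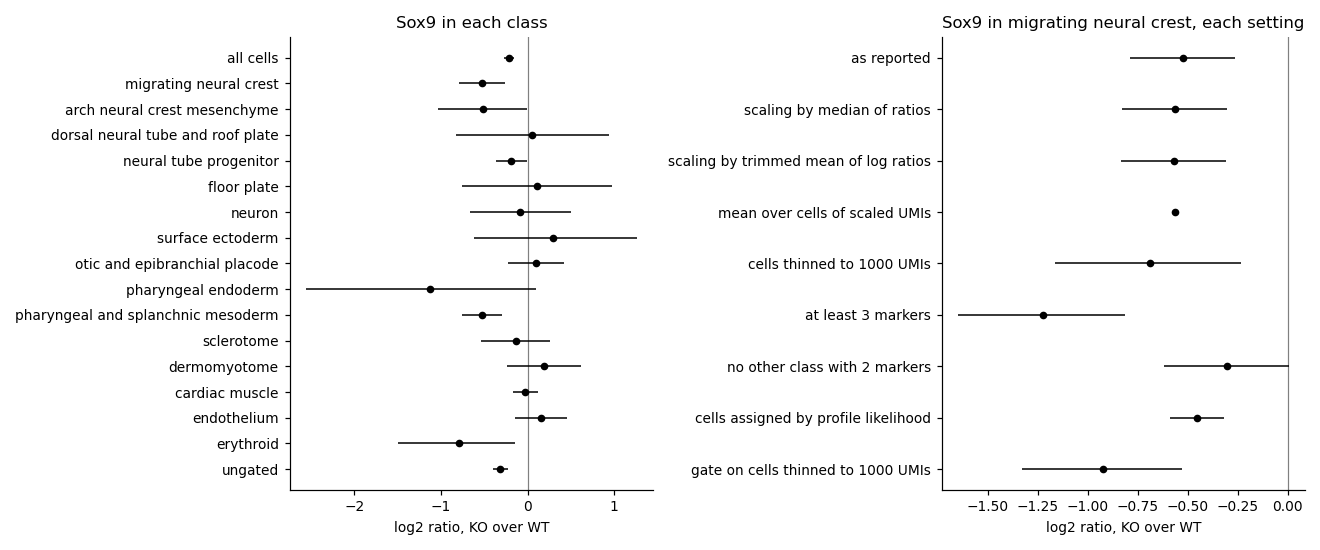
Log2 ratio of KO over WT for Sox9 (horizontal axes) with exact 95% intervals, on the left in each class and on the right in migrating neural crest under each setting tried; the mean over cells has no interval. Points lie below 0 in migrating and arch neural crest, mesoderm and erythroid cells, near 0 in cardiac muscle, and between -1.22 and -0.30 on the right.

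Among all pairs of a member and a class with at least 50 UMIs, 11 of 38 (28.9%) had an interval that excluded 0, 3 above and 8 below, against 17.3% of 56735 such pairs over all genes. Beside Sox9, Ets1 was higher in KO in neural tube progenitors (45.9 and 61.5 CPM, 0.42, interval 0.07 to 0.78) and cardiac muscle (54.2 and 66.4 CPM, 0.29, interval 0.03 to 0.56). Tfap2b was lower in neural tube progenitors (33.5 and 23.4 CPM, -0.52, interval -1.02 to -0.03) and higher in cardiac muscle (19.1 and 27.9 CPM, 0.55, interval 0.11 to 0.99). Foxd3 was lower in cardiac muscle (41 and 22 UMIs, -0.99, interval -1.81 to -0.21) and Sox5 in mesoderm (50 and 21 UMIs, -0.78, interval -1.59 to -0.02). The cardiac gate took in cells with transcripts of abundant cardiac genes: Myh6, the alpha myosin heavy chain, was seen in 10.4% of WT and 15.8% of KO erythroid cells. Over the cardiac markers, this erythroid share ran from 0.176% (Tcap) to 15.5% (Myl3) in WT. In KO it ran from 0 (Tcap) to 15.8% (Myh6 and Myl2). It was higher in KO for some markers and lower for others. With 5 or more cardiac markers required (611 WT and 383 KO cells), Tfap2b had 12 and 8 UMIs (-0.16, interval -1.66 to 1.25), Ets1 52 and 37 (-0.07, interval -0.72 to 0.57) and Foxd3 6 and 2 (-1.16, interval -4.51 to 1.32). The ratios of Tfap2b and Ets1 were then below 0, and that of Foxd3 was as large on fewer UMIs. Each of these intervals included 0 and also the ratio of the 2-marker gate.

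In endothelium Sox5 had 4 UMIs in 4 of 622 WT cells and 25 UMIs in 22 of 492 KO cells. The log2 ratio was 2.72 (1.18 to 4.70). This class is named after its values were seen, and its 29 UMIs lay under the minimum of 50. After thinning, 0.331% of WT cells (0.0401% to 1.19%) and 1.83% of KO cells (0.840% to 3.44%) held a Sox5 UMI, with overlapping intervals. Before thinning the shares were 0.643% (0.175% to 1.64%) and 4.47% (2.82% to 6.69%), and those of erythroid cells were 0.882% (0.287% to 2.05%) and 0.930% (0.113% to 3.32%). The 2 intervals in KO overlapped. By UMIs, the Sox5 level of KO endothelium was 5.30-fold that of KO erythroid cells (1.32 to 46.2), and in WT it was 0.707-fold (0.140 to 3.28). Of other pairs under the minimum, Sox5 in neurons (1 and 9 UMIs, 2.86, interval 0.01 to 8.32) and Tfap2a in mesoderm (5 and 12 UMIs, 1.73, interval 0.13 to 3.59) had intervals above 0. Those of Sox10 in sclerotome (7 and 0 UMIs) and Sox5 in dorsal neural tube (6 and 0 UMIs) lay below. The share of such pairs over all genes was not counted.

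Among the genes of the same network with at least 50 UMIs in migrating neural crest, 0 differed 1.5-fold, against 4.68% of the 3058 genes that were higher and 5.82% that were lower. The median log2 ratio of the 3058 genes was -0.000343. Of 9 genes of the neural plate border, 2 reached 50 UMIs in that class: Pax3 (48 and 32 UMIs, -0.18, interval -0.87 to 0.49) and Gbx2 (39 and 37 UMIs, 0.33, interval -0.36 to 1.01). Of 16 other neural crest factors, 9 did, with a median of -0.02. The 3 with most UMIs were the nuclear receptors Nr2f1 (306 and 228 UMIs, -0.02, interval -0.28 to 0.23) and Nr2f2 (218 and 135 UMIs, -0.29, interval -0.61 to 0.03) and the LIM protein Lmo4 (241 and 181 UMIs, -0.01, interval -0.30 to 0.27). Of 13 genes known to bind SoxE or SoxD factors near them, 3 did. They included the glial receptor gene Erbb3 (180 and 131 UMIs, -0.06, interval -0.39 to 0.28), which is also a marker of the gate, and the cartilage collagen Col2a1 (123 and 98 UMIs, 0.08, interval -0.32 to 0.47). Over all cells, where 3.87% of all genes were 1.5-fold lower in KO and 1.03% higher, 0 of the 9 border genes, 2 of the 16 other factors and 1 of the 8 SoxE or SoxD genes with at least 50 UMIs were 1.5-fold lower. None of these genes was 1.5-fold higher. The 2 factors were Sox8 (47 and 23 UMIs, -0.90, interval -1.68 to -0.15) and Myc (815 and 487 UMIs, -0.61, interval -0.77 to -0.45), and the third gene was Col11a2 (51 and 26 UMIs, -0.84, interval -1.58 to -0.13).

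Over the 15 classes, the levels of some members ran in parallel. Pearson's r of log2(CPM + 10) was 0.81 in WT and 0.52 in KO for Sox10 and Foxd3, 0.79 and 0.66 for Sox10 and Tfap2b, 0.85 and 0.82 for Tfap2a and Tfap2b, and 0.77 and 0.64 for Sox9 and Sox10. Snai2 and Ets1 had r between -0.41 and 0.41 with every other member in both libraries. The classes of a library share its depth and free RNA, so these are descriptions. Of 10513 genes with at least 200 UMIs, the profile most like that of Sox10 in WT was that of Ngfr, a gate marker (0.91 in WT and 0.69 in KO), and next Phactr1, a regulator of actin (0.88 and 0.86). Phactr1 also came first for Foxd3 (0.79 and 0.64). The first genes were Tspan7 (0.89 and 0.44) and Rgcc (0.87 and 0.54) for Sox9, Txnl4a (0.86 and 0.52) and Dnajc1 (0.84 and 0.75) for Tfap2b, and Taf5 (0.85 and 0.09) and the placode marker Foxi2 (0.82 and 0.43) for Tfap2a. For Ets1 they were Fbn1 (0.91 and 0.56) and Med4 (0.88 and 0.34), for Snai2 Flrt3 (0.83 and 0.49) and Vash2 (0.82 and 0.21), and for Sox5 Mboat7 (0.89 and 0.24) and Zrsr2 (0.82 and 0.47). Of these pairs of a member with another gene, those of Sox10 with Phactr1 and Tfap2b with Dnajc1 had r over 0.7 in KO.

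Ungated cells also held the factors. They held 43.3% of all Sox10 UMIs in WT and 39.4% in KO, against 24.4% and 21.6% in migrating neural crest, and 34.7% and 43.9% of all Foxd3 UMIs. Per UMI their levels were near those over all cells: Foxd3 was at 12.3 CPM against 13.3 CPM over all cells in WT and at 14.1 against 12.1 CPM in KO, and Sox10 over all cells was at 61.3 and 58.5 CPM. In ungated cells Sox10 was at 70.6 CPM in WT and 60.9 CPM in KO (-0.21, interval -0.40 to -0.03) and Snai2 at 61.4 and 53.3 CPM (-0.20, interval -0.40 to -0.01). Of the 288 ungated WT cells with a Sox10 UMI, 52.1% held at least 1 marker of the migrating class (46.1% to 58.0%), against 15.7% (14.7% to 16.8%) of the ungated cells without Sox10. In KO these were 46.2% (39.9% to 52.6%) of 249 cells and 14.2% (13.1% to 15.4%). Foxd3 (46.8% in WT and 39.0% in KO) and Tfap2b (38.3% and 43.7%) were likewise above cells without them, at 17.3% and 15.7% for Foxd3 and 16.9% and 14.7% for Tfap2b. In WT, Sox5 (30.0% against 17.3%), Tfap2a (31.9% against 17.5%), Sox9 (24.6% against 15.5%) and Ets1 (22.1% against 17.3%) were above as well. In KO they were too, with overlapping intervals for Tfap2a. For Snai2 the shares were 18.5% (14.9% to 22.6%) with and 17.7% without in WT. Cells were not thinned for these shares, so cells with and without a factor were not matched for depth. Under the assignment by likelihood the migrating class held 452 WT and 345 KO cells. Sox9 was then at 1023 and 748 CPM (-0.45, interval -0.59 to -0.32), Foxd3 at 156 and 106 CPM and Sox10 at 722 and 622 CPM.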

How the data were processed

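Droplet 3' libraries were read with Cell Ranger 1.3.1, and Scanpy is also named in the submitters' notes, which give mm10 as the build. The deposited values are a signal that the authors made by scaling the UMI counts of each cell to a common total of 1641 and taking the square root, after filters on UMIs and genes per cell and removal of mitochondrial and ribosomal UMIs. Doublets were removed by depth and with a caller per the methods, though whether before deposit is not said; no caller was run here. UMIs were recovered by squaring and dividing by the smallest nonzero square of the cell, and 100% of nonzero values were whole within 0.01. Totals were 20781384 UMIs in WT and 18936857 in KO.

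UMIs were summed per class, with exact Poisson intervals for CPM, exact conditional intervals for log2 ratios and exact (Clopper-Pearson) intervals for shares. No test was run, since cells are not replicates. Of 165 markers, 159 had a column. The members, markers and lists were chosen with earlier results of these data known. Named genes were the members, the 2 genes of most similar profile for each, and list genes 1.5-fold apart or among the 3 with most UMIs in migrating neural crest; 1 gene that this rule names is not reported here. Intervals and recovery were tested on simulated data. Positions are from GENCODE vM21. Python 3.11.15, NumPy 2.4.6, SciPy 1.17.1, pandas 2.3.3 and Matplotlib 3.10.9 were used.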

Additional observations from a re-analysis of the deposited data

Results flagged for a closer look

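Tfap2b was flagged because its ratio of KO over WT lay below 0 in one class and above 0 in another. The log2 ratio was -0.52 in neural tube progenitors (87 UMIs in WT and 60 in KO) and 0.55 in cardiac muscle (74 and 115 UMIs), and neither interval included 0. The difference between the classes was not tested. With 5 or more cardiac markers required, the cardiac ratio was -0.16 (-1.66 to 1.25), on 12 and 8 UMIs.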

How the results depend on the processing

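With 5 or more cardiac markers, an alternative added after the data were seen, the cardiac muscle ratios of Tfap2b (0.55) and Ets1 (0.29) were -0.16 and -0.07. Their intervals (-1.66 to 1.25 and -0.72 to 0.57) included both 0 and the first ratios, so a change of direction is not shown. No other alternative gave the opposite sign to a ratio whose interval excluded 0 over all cells or in neural crest. The Sox9 ratio in migrating neural crest (-0.53) was -1.22 with at least 3 markers and -0.92 with the gate applied to thinned cells. In neural crest of either gate, the gate on thinned cells gave -1.23 for Sox5 (-0.16), -1.11 for Sox9 (-0.56), -0.54 for Sox10 (-0.20), with an interval of -0.92 to -0.16, -0.32 for Tfap2b (0.03) and -1.02 for Snai2 (0.08), and at least 3 markers gave -1.18 for Sox9. The migrating Sox9 ratio was -0.30 (-0.62 to 0.01) where no other class had 2 markers, with an interval that then included 0. Over all cells thinned to 1000 UMIs, the intervals of Tfap2b (0.07) and Ets1 (0.10) included 0, and Foxd3, whose interval included 0 in both, was at 0.11 in place of -0.13. Thinning also left out 1361 WT and 125 KO cells. Under the likelihood assignment, added after the data were seen, the intervals of Sox10 and Foxd3 also excluded 0. Counts of genes past 1.5-fold followed the minimum of UMIs. Over all cells there were 633 with 50 UMIs, 3543 with no minimum and 251 with 200 UMIs, and in migrating neural crest 321, 6569 and 23. Other scalings set the reference at -0.06 over all cells and 0.04 in migrating neural crest, and relative to it the intervals of Sox9, Snai2, Tfap2b and Ets1 over all cells and of Sox9 in migrating neural crest still excluded 0. No paired analysis was possible because each genotype had 1 library. Tfap2a, Sox5 and Snai2 had fewer than 50 UMIs in migrating neural crest, and each member but Sox9 did in arch neural crest.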
